A study of Mus musculus with 27 samples.

Results

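Embryonic stem cells (ESC) and fibroblasts that both lack the histone demethylase UTX were compared by their H3K4me3 and H3K27me3 peaks. Chromatin immunoprecipitation with sequencing (ChIP-seq) gave 1 peak list per mark and cell type, 4 lists in all, chosen by their labels. They held 84128 of the 234651 peaks in the 19 lists of the series. The Utx-KO ESC were V6.5 mouse ES cells of genotype Utx-/Y, grown without doxycycline in N2B27 medium with 2i and LIF. The Utx-KO fibroblasts (Utx-KO MEF) carried the same genotype on the V19-OSKM background, in which doxycycline can switch on the OSKM reprogramming factors, and were not given it. The labels say that the fibroblasts, too, were expanded in 2i and LIF. Cell type and mouse line therefore change together in the comparison and cannot be told apart. H3K4me3 was precipitated with antibody ab8580 from abcam and H3K27me3 with 07-449 from Millipore. WT ESC (Utx+/Y) and untreated WT MEF of the series serve as the same comparison with UTX present. Utx-KO MEF and WT MEF given doxycycline, and 2 Utx-KO iPS clones that the labels call aberrant, are used to follow single regions.

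H3K4me3 lies over the promoters of active genes and of genes held ready for use. H3K27me3 is laid down by the Polycomb complexes over genes kept silent, often in broad domains. In ES cells many developmental promoters carry both marks at once, a state called bivalent, and differentiating cells keep or lose either mark at each of them. UTX, encoded on the X chromosome, removes methyl groups from H3K27, so all 4 lists come from cells without this enzyme.

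The H3K4me3 lists had 20133 peaks in Utx-KO ESC and 22056 in Utx-KO MEF, and their total length was 43.3 Mb for the ESC list and 22.3 Mb for the MEF list. The H3K27me3 lists differed far more, with 36231 peaks over 79.8 Mb in Utx-KO ESC and 5708 peaks over 4.20 Mb in Utx-KO MEF. Sequencing depth was not known, and the length of a list can change with it. The authors' peak score, a value that falls as a peak becomes easier to obtain by chance, was at least 100 for 82.7% of the H3K4me3 peaks in Utx-KO ESC and 86.4% in Utx-KO MEF. For H3K27me3 the share was 50.2% in Utx-KO ESC and 91.8% in Utx-KO MEF. With 1 library per mark and cell type there was no replicate, so no difference was tested. The 95% intervals given are exact binomial (Clopper-Pearson) intervals that cover counting error over peaks only.

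Both sex chromosomes needed a look before the comparison. No H3K4me3 peak of either Utx-KO list lay on the Y chromosome, although the genotype label includes a Y. WT ESC had 3 such peaks, WT MEF 7, Utx-KO MEF with doxycycline 2 and the iPS clones 3 and 6. The H3K27me3 list of Utx-KO MEF had 330 peaks on the X chromosome, 5.78% of the list. The share on X was 1.25% in Utx-KO MEF with doxycycline and 0.735% in WT MEF. Its part in the results was not tested, and values from the autosomes alone are given where they differ.

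H3K4me3 regions were shared to a large extent, and the unshared ones were mostly on the ESC side. Overlapping peaks of both lists merged into 23479 regions. Utx-KO ESC alone carried 7984 of them (34.0%), Utx-KO MEF alone 3436 (14.6%), and 12059 (51.4%) were carried by both. The log2 ratio of regions only in Utx-KO ESC to regions only in Utx-KO MEF was 1.22 (interval 1.16 to 1.27). The overlap took in 60.3% of the Utx-KO ESC peaks (59.7 to 61.0) and 84.4% of the Utx-KO MEF peaks (83.9 to 84.9). Most of what fibroblasts marked was thus also marked in ES cells, and the reverse held less often. The WT cells had a like pattern, with 7701 regions (35.3%) only in WT ESC, 2455 (11.2%) only in WT MEF and 11685 (53.5%) in both, a log2 ratio of 1.65 (1.58 to 1.72). Whether the Utx-KO and WT ratios differ was not tested.

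**Figure D1:**
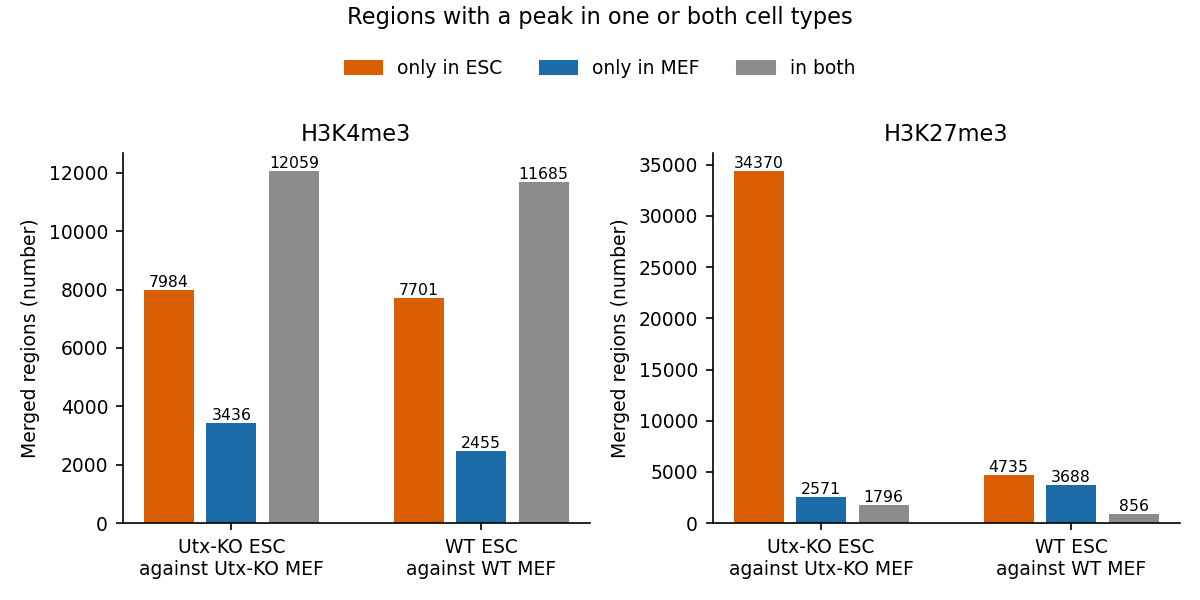
Number of merged regions with a peak only in ESC, only in MEF or in both, for H3K4me3 on the left and H3K27me3 on the right, in Utx-KO cells and in WT cells. The H3K4me3 bars have nearly the same shape in Utx-KO and WT cells, while 34370 H3K27me3 regions only in Utx-KO ESC stand far above every other H3K27me3 bar.

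The shared H3K4me3 regions were wide and high in score, and the unshared ones were narrow. Median width was 2498 bp for regions in both cell types, 1262 bp for those only in Utx-KO ESC and 483 bp for those only in Utx-KO MEF. The median score was 1417 in both, 133 only in Utx-KO ESC and 116 only in Utx-KO MEF. A shared region spans the peaks of both lists and takes their highest score, which by itself raises both values. A wide peak also meets another more easily. How much of the contrast comes from this was not tested. The width of a peak also differed between the cell types where both had 1 peak. In 6749 such pairs the median width was 2085 bp in Utx-KO ESC and 1225 bp in Utx-KO MEF, and the ESC peak was the wider in 91.1%. The median log2 ratio of widths was 0.75 in Utx-KO cells and 0.68 over 8216 pairs in WT cells. Fibroblast peaks were also more broken up, since 5281 shared regions held more than 1 peak of Utx-KO MEF, up to 7, and 85 held more than 1 peak of Utx-KO ESC.

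Ordering each list by score showed where the sharing lay. In the highest decile of the H3K4me3 peaks, 95.8% of those of Utx-KO ESC were met by Utx-KO MEF and 96.3% of those of Utx-KO MEF were met by Utx-KO ESC. In decile 5 the shares were 74.8% for Utx-KO ESC peaks and 93.2% for Utx-KO MEF peaks. In the lowest decile they were 13.8% for Utx-KO ESC peaks and 57.1% for Utx-KO MEF peaks. In both lists, H3K4me3 peaks without a counterpart in the other cell type were thus more frequent among the low scores than among the high ones.

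**Figure D2:**
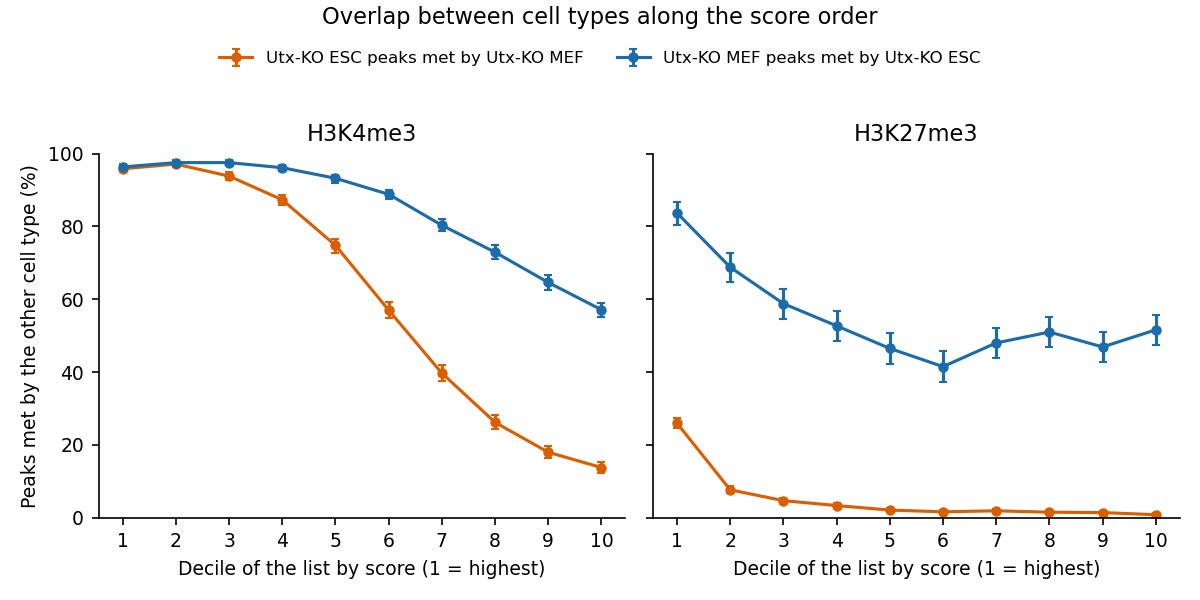
Share of peaks (percent, with 95% binomial intervals) that overlapped a peak of the other cell type, by decile of the list in score order, for H3K4me3 on the left and H3K27me3 on the right. H3K4me3 sharing falls to 13.8% at the low end of the Utx-KO ESC list and to 57.1% at that of the Utx-KO MEF list, whereas H3K27me3 peaks of Utx-KO ESC are rarely met beyond the highest decile.

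Some unshared H3K4me3 regions were nevertheless among the highest scoring of all. Regions are named by position in the mouse build mm9, since no mm9 gene annotation was at hand, and were taken as the 10 with the highest scores per direction. Equal scores were ordered by width. The score saturated near 3100, and 2268 H3K4me3 peaks of Utx-KO ESC and 60 of Utx-KO MEF had 3100 or more. The choice therefore favoured wide regions, and the widths of the named ones are partly set by it. The 10 found only in Utx-KO ESC were 3228 to 15066 bp wide. The widest, chr12:87807101-87822166, had H3K4me3 over 15.1 kb in Utx-KO ESC and none in Utx-KO MEF, against 14.8 kb in WT ESC and none in WT MEF. The regions chr8:44380540-44392977 and chr6:122654631-122665631 were alike, with 12.4 and 11.0 kb of H3K4me3 in Utx-KO ESC and none in Utx-KO MEF. All 10 were marked in WT ESC and in both iPS clones, 2 in Utx-KO MEF with doxycycline and 1 in WT MEF. These positions thus carried H3K4me3 in the ESC lists of either genotype and in both iPS clones.

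The 10 highest scoring H3K4me3 regions found only in Utx-KO MEF were 3219 to 6590 bp wide. All 10 were marked in WT MEF and in Utx-KO MEF with doxycycline, 5 in iPS clone 1, 7 in iPS clone 2 and 3 in WT ESC. At chr9:41389314-41395903 no H3K4me3 was listed in Utx-KO ESC, and it covered 6.59 kb in Utx-KO MEF. The regions chr1:164147787-164153632 and chr1:45368020-45372636, of 5.85 and 4.62 kb in Utx-KO MEF, were marked in neither ESC list nor iPS clone. H3K27me3 was listed at 6 of the 10 in Utx-KO ESC and at 3 in WT ESC. At chr8:105304319-105309016 it covered 4.17 kb in Utx-KO ESC (score 1351), and H3K4me3 covered 4.70 kb in Utx-KO MEF. At chr2:125860191-125865161 H3K27me3 covered only 1.16 kb in Utx-KO ESC, with a low score of 59.5. Utx-KO ESC had H3K27me3 at 31.5% of all H3K4me3 regions only in Utx-KO MEF, and at 31.9% of those only in Utx-KO ESC. The 5 widest shared regions, 12678 to 14654 bp, were in all H3K4me3 lists. They were set by the ESC peak, as at chr5:108489168-108503821, with 14.7 kb in Utx-KO ESC and 1.90 kb in Utx-KO MEF.

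The WT lists and the iPS clones held the H3K4me3 regions on the side that the cell type labels give. Of the 7984 regions only in Utx-KO ESC, 69.2% had H3K4me3 in WT ESC and 7.62% in WT MEF. Of the 3436 only in Utx-KO MEF, 14.3% had it in WT ESC and 46.6% in WT MEF. The fibroblast side was less often recovered, and 48.4% of its regions had H3K4me3 in neither WT list, against 29.9% on the ESC side. Its regions were also narrower, with a median width of 483 bp against 1262 bp. The WT MEF list covered 23.6 Mb and the WT ESC list 46.1 Mb. Both limit recovery on the fibroblast side, and how much of the difference comes from them was not tested. In the iPS clones, which came from Utx-KO fibroblasts, 62.1% and 82.3% of the regions only in Utx-KO ESC were marked, and 21.5% and 42.7% of those only in Utx-KO MEF. Utx-KO MEF with doxycycline had 26.5% of the regions only in Utx-KO ESC and 74.3% of those only in untreated Utx-KO MEF. In WT MEF with doxycycline the shares were 38.1% and 63.3%. Of the 12059 shared regions, 90.6% were marked in all 6 other H3K4me3 lists.

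**Figure D3:**
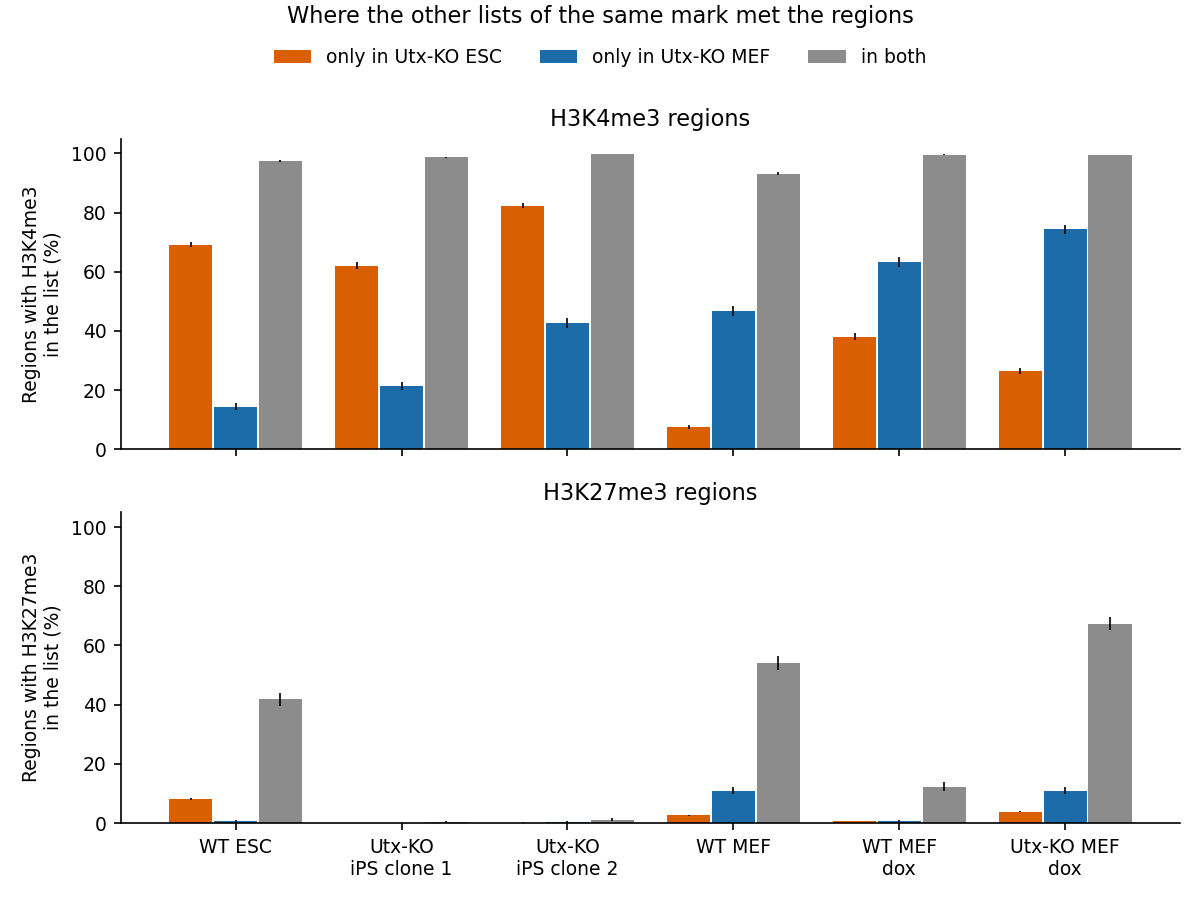
Share of regions (percent, with 95% binomial intervals) only in Utx-KO ESC, only in Utx-KO MEF or in both that had a peak of the same mark in each of the 6 other lists, for H3K4me3 above and H3K27me3 below. H3K4me3 regions only in Utx-KO ESC recur in WT ESC (69.2%) and the iPS clones, those only in Utx-KO MEF recur in the fibroblast lists, and few one-sided H3K27me3 regions recur in the H3K27me3 lists, which hold 135 to 5679 peaks.

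H3K27me3 was distributed very differently in the 2 cell types. Of 38737 merged regions, Utx-KO ESC alone carried 34370 (88.7%), Utx-KO MEF alone 2571 (6.64%), and 1796 (4.64%) were carried by both. The log2 ratio was 3.74 (interval 3.68 to 3.80). The overlap took in 5.14% of the Utx-KO ESC peaks (4.91 to 5.37) and 55.0% of the Utx-KO MEF peaks (53.7 to 56.3). The share of peaks counts each piece of a split stretch. The 3137 Utx-KO MEF peaks that were met lay in the 1796 shared regions. Of these regions, 596 held several Utx-KO MEF peaks, up to 19, while in WT cells 177 shared regions held several WT MEF peaks, up to 5. In WT cells there were 4735 regions (51.0%) only in WT ESC, 3688 (39.7%) only in WT MEF and 856 (9.23%) in both, a log2 ratio of 0.36 (0.30 to 0.42), and 22.5% of the WT MEF peaks met a WT ESC peak. The lists differed in length, and with the 5708 highest scoring peaks of each the ratio in Utx-KO cells was 0.41 (0.35 to 0.47). With lists of equal length, the ratio is set by how many peaks of each list were met. It therefore also follows how far marked stretches are split into several peaks. The H3K4me3 ratio at equal lengths was 1.66, and neither ratio shows by itself which cell type had more of the mark. With the equal H3K27me3 lists 39.4% of the Utx-KO MEF peaks were still met.

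H3K27me3 peaks in Utx-KO ESC were broad and those in Utx-KO MEF short. Over 1177 regions with 1 peak in each, the median width was 3184 bp in Utx-KO ESC and 649 bp in Utx-KO MEF, a median log2 ratio of 2.21, and the ESC peak was the wider in 99.2%. In WT cells the same value was 0.34 over 653 pairs. Regions in both cell types had a median width of 4157 bp, those only in Utx-KO ESC 1545 bp and those only in Utx-KO MEF 632 bp. The shared regions again span the peaks of both lists, which by itself adds to their width. Sharing depended on the score in the ESC list, where 26.0% of the highest decile and 0.856% of the lowest decile met a Utx-KO MEF peak. In the Utx-KO MEF list 83.7% of the highest decile was met, and from decile 5 down the share stayed between 41.5% and 51.6%.

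Few of the unshared H3K27me3 regions were seen in any other library, but the other lists were short. They held 5679 peaks in WT ESC, 4760 in WT MEF, 4335 in Utx-KO MEF with doxycycline, 938 in WT MEF with doxycycline, and 135 and 737 in the iPS clones. The size of each list limits how many regions can recur in it. Of those only in Utx-KO ESC, 8.07% had H3K27me3 in WT ESC, and 87.7% had it in none of the 6 other H3K27me3 lists. Of those only in Utx-KO MEF, 11.0% had it in WT MEF, 10.9% in Utx-KO MEF with doxycycline, and 83.1% in no other list. The shared regions recurred more, with 41.8% in WT ESC, 54.1% in WT MEF, 67.4% in Utx-KO MEF with doxycycline and 22.0% in none. They were also wider than the unshared ones (median 4157 bp against 1545 bp only in Utx-KO ESC and 632 bp only in Utx-KO MEF). A wider region is met more easily, and the part of width in this was not tested.

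The widest H3K27me3 domains of each list, made by joining peaks at most 3000 bp apart, were read as single loci. The widest of Utx-KO ESC, chr7:150487390-150660761, spanned 173372 bp with 149 kb under peaks, and Utx-KO MEF had no H3K27me3 peak in it. In WT ESC 11.1 kb of it was marked and in WT MEF 1.72 kb. The second, chr6:52099112-52235616, had 124 kb under H3K27me3 peaks in Utx-KO ESC and 41.5 kb in Utx-KO MEF. It enclosed the widest domain of Utx-KO MEF, chr6:52163760-52219101, where 52.5 kb was covered in Utx-KO ESC and 36.8 kb in Utx-KO MEF. Of the 5 widest Utx-KO ESC domains, 4 had H3K27me3 in Utx-KO MEF, so the first was the exception. All 5 of the widest Utx-KO MEF domains, 30011 to 55342 bp, also had H3K27me3 in Utx-KO ESC, WT ESC and WT MEF.

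The H3K27me3 regions with the highest scores only in Utx-KO ESC were 4401 to 18236 bp wide, and all 10 also had H3K27me3 in WT ESC and H3K4me3 in Utx-KO ESC. In Utx-KO MEF 8 of them had H3K4me3. The absence of H3K27me3 did not extend to all fibroblast lists, as 7 of the 10 had it in Utx-KO MEF with doxycycline and 5 in WT MEF. At chr5:75539132-75551706, H3K27me3 covered 12.6 kb in Utx-KO ESC and none in Utx-KO MEF, while H3K4me3 covered 0.231 kb in Utx-KO ESC and 5.34 kb in Utx-KO MEF. At chr6:52110955-52125694 H3K27me3 covered 14.7 kb in Utx-KO ESC, and H3K4me3 there covered 3.11 kb in Utx-KO ESC and 11.0 kb in Utx-KO MEF.

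On the fibroblast side the 10 regions were 658 to 3259 bp wide, and all 10 had H3K27me3 in WT MEF and none in WT ESC. The leading 3, chr2:98506221-98507664, chr2:98502215-98503317 and chr9:35112627-35113284, are doubtful, because H3K4me3 and UTX peaks lay at the same positions in WT MEF. Of the other 7, 4 had H3K4me3 in Utx-KO ESC. At chr1:138843033-138845348, chr8:91567846-91569712 and chr6:49168804-49172062 the ESC had H3K4me3 and the fibroblasts H3K27me3, in Utx-KO and in WT cells alike. In the last of these, H3K4me3 covered 1.64 kb in Utx-KO ESC and H3K27me3 covered 3.26 kb in Utx-KO MEF.

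Places with a large excess of H3K27me3 in fibroblasts were few. H3K27me3 of either cell type lay in 9857 windows of 100 kb. Of these, 4530 had at least 5 kb more in Utx-KO ESC and 13 had at least 5 kb more in Utx-KO MEF. The coverage of the lists limits these counts. The Utx-KO MEF list covered 4.20 Mb in 2662 windows, against 79.8 Mb in 9223 windows for Utx-KO ESC. An excess of 5 kb was thus far harder to reach in Utx-KO MEF. Any excess in Utx-KO MEF, however small, was found in 696 of the 2662 windows it marked, and 187 of the 696 were on the X chromosome, where it marked 233 windows. The largest excess in fibroblasts was at chr11:96100001-96200000, with 1.52 kb in Utx-KO ESC and 23.8 kb in Utx-KO MEF. It held 26 consecutive H3K27me3 peaks of Utx-KO MEF without a Utx-KO ESC counterpart, in chr11:96114156-96164307. WT cells had the reverse order in this window, with 30.4 kb in WT ESC and 13.8 kb in WT MEF, and Utx-KO MEF with doxycycline had 49.2 kb. Utx-KO ESC thus had the least H3K27me3 there of these lists, and H3K4me3 covered 14.6 kb of it in Utx-KO ESC and 7.33 kb in Utx-KO MEF. The windows and this run of peaks were chosen after their values were seen.

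The X chromosome did not follow the autosomes. On each autosome H3K27me3 regions only in Utx-KO ESC outnumbered those only in Utx-KO MEF, with log2 ratios of 2.95 to 4.63. On the X chromosome Utx-KO ESC alone carried 283 regions, Utx-KO MEF alone 308 and both 19, a log2 ratio of -0.12. Of the X-linked Utx-KO MEF peaks 6.67% met a Utx-KO ESC peak, against 57.9% of the autosomal ones. The X-linked regions of Utx-KO MEF were seen almost nowhere else, since 97.4% of the 308 were in no other H3K27me3 list, against 81.1% of the autosomal ones. Each of the other H3K27me3 lists held only 1 to 54 peaks on X, which limits how many of the 308 can recur. The median width of all 330 X-linked H3K27me3 peaks of Utx-KO MEF was 616 bp and that of its autosomal peaks 653 bp, with median scores of 150 and 151. For H3K4me3 the X chromosome, at 0.58, was within the autosomal range of 0.29 to 2.07. Over the autosomes alone the log2 ratio was 3.91 for H3K27me3 and 1.24 for H3K4me3.

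**Figure D4:**
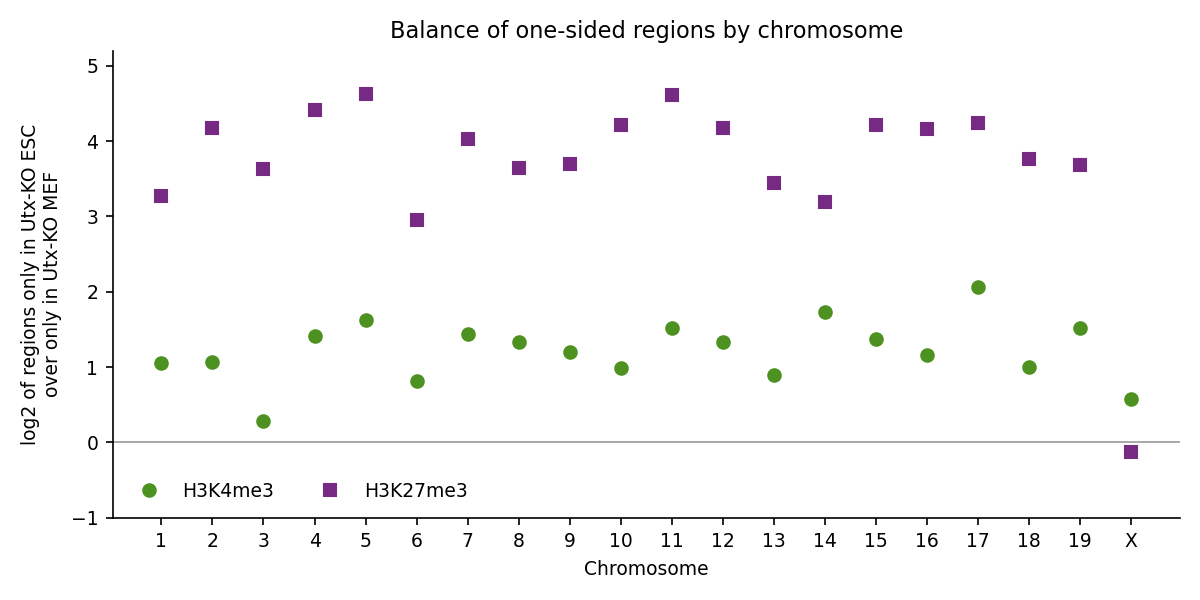
Log2 ratio of regions only in Utx-KO ESC to regions only in Utx-KO MEF on each chromosome, for H3K4me3 (circles) and H3K27me3 (squares), with a line at 0, where both counts are equal. H3K27me3 ratios are between 2.95 and 4.63 on the autosomes and at -0.12 on X, while the H3K4me3 ratio of X, 0.58, is inside the autosomal range.

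Peaks with both marks were common in Utx-KO ESC and rare in Utx-KO MEF. In Utx-KO ESC 5060 of the 20133 H3K4me3 peaks overlapped H3K27me3, 25.1% (24.5 to 25.7). In Utx-KO MEF 184 of 22056 did, 0.834% (0.718 to 0.963). Doubly marked peaks of Utx-KO ESC were narrower than those with H3K4me3 alone, with a median of 1537 against 2077 bp, and lower in score, 258 against 859. In WT cells 83.8% of the 5060 had H3K4me3 in WT ESC, 27.5% had H3K27me3 there and 23.6% had both. The number of doubly marked peaks follows the length of the H3K27me3 list, and with lists of equal length the share was 14.3% in Utx-KO ESC and 0.790% in Utx-KO MEF.

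The doubly marked positions of Utx-KO ESC took each of 4 forms in Utx-KO MEF. In fibroblasts 2308 (45.6%) had H3K4me3 alone, 1940 (38.3%) neither mark, 610 (12.1%) H3K27me3 alone and 202 (3.99%) both. H3K27me3 in fibroblasts was thus present at 16.0% of them (15.0 to 17.1), against 1.03% (0.873 to 1.20) of the 15073 ESC peaks with H3K4me3 alone. H3K4me3 in fibroblasts was present at 49.6% of the doubly marked peaks (48.2 to 51.0) and at 63.9% of the others (63.2 to 64.7). The order of the H3K4me3 shares depended on the score, so it was also read within quintiles of the ESC list. In the highest quintile 88.9% of the doubly marked peaks and 96.6% of the others had H3K4me3 in fibroblasts, but in the lowest quintile it was 24.2% of the doubly marked peaks and 12.5% of the others. The H3K27me3 shares kept their order in every quintile, from 13.3% to 17.1% at doubly marked peaks and from 0.663% to 1.43% at the others.

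Single positions illustrate these forms in the Utx-KO lists. At chr6:83659851-83663167, where H3K4me3 covered 3.32 kb and H3K27me3 2.77 kb in Utx-KO ESC, Utx-KO MEF had 0.832 kb of H3K27me3 and no H3K4me3. At chr7:90013609-90019128, where H3K4me3 covered 5.52 kb and H3K27me3 2.54 kb in Utx-KO ESC, Utx-KO MEF had 2.88 kb of H3K4me3 and no H3K27me3. Both cell types had both marks at chr2:38779936-38783105, where H3K27me3 covered 0.968 kb in Utx-KO ESC and 1.12 kb in Utx-KO MEF. At chr6:54889941-54895550 H3K4me3 covered 5.61 kb and H3K27me3 4.08 kb in Utx-KO ESC, and Utx-KO MEF had neither mark. The WT lists did not show the same forms throughout: WT ESC had H3K27me3 at the chr7 position only, and at the chr2 position WT MEF had none either.

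Set over all 23479 H3K4me3 regions, 9497 (40.4%) had H3K4me3 alone in both cell types and 5324 (22.7%) had it alone in Utx-KO ESC and neither mark in Utx-KO MEF. A full exchange of marks was less frequent. H3K27me3 without H3K4me3 in Utx-KO ESC together with H3K4me3 without H3K27me3 in Utx-KO MEF was seen at 1060 regions (4.51%). The opposite exchange, H3K4me3 alone in Utx-KO ESC and H3K27me3 alone in Utx-KO MEF, was seen at 110 (0.469%), a class that was chosen after its values were seen. The list lengths bear on this imbalance, since with equal lists the counts were 398 of the first kind and 240 of the second.

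**Figure D5:**
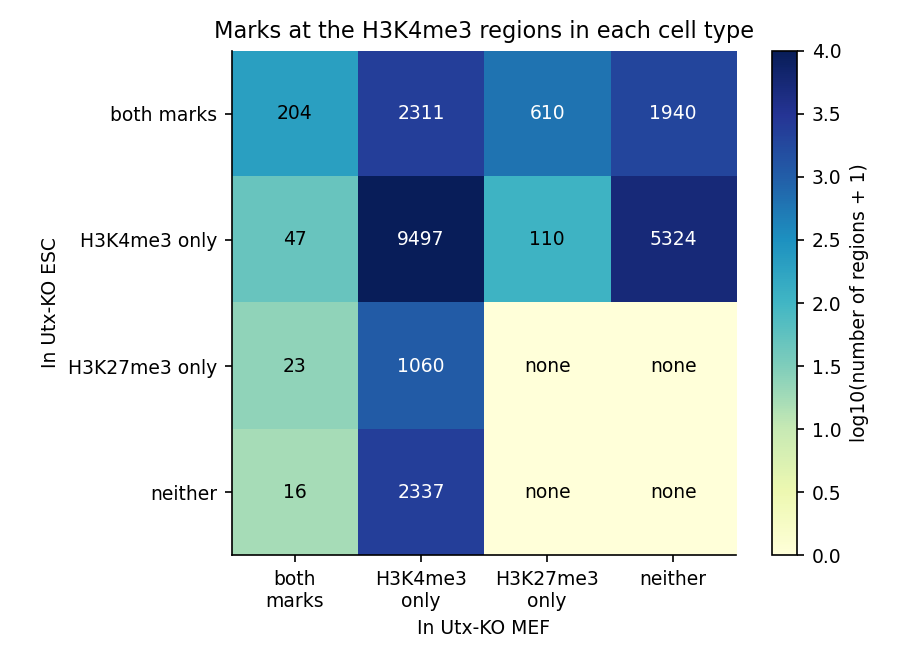
Number of H3K4me3 regions by the marks they had in Utx-KO ESC (rows) and in Utx-KO MEF (columns); colour gives log10 of the number plus 1. Most regions had H3K4me3 alone in both (9497) or in Utx-KO ESC only (5324), and the exchange of H3K27me3 in Utx-KO ESC for H3K4me3 in Utx-KO MEF (1060) exceeds the opposite exchange (110); cells marked none cannot occur, as every region has H3K4me3 in at least 1 list.

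The WT lists were searched for the same 2 exchanges, and the difference between the 2 shares was not tested. Of the 1060 regions with H3K27me3 in Utx-KO ESC and H3K4me3 in Utx-KO MEF, 19.3% had H3K27me3 in WT ESC, 56.6% had H3K4me3 in WT MEF and 12.9% (11.0 to 15.1) had both of these. Counting only regions where WT cells, too, had each mark without the other, the share was 8.40% (6.80 to 10.2). The 1060 regions were narrow, with a median of 525 bp, and 90.8% had H3K4me3 in Utx-KO MEF with doxycycline. An example is chr1:82280005-82285406, with 3.80 kb of H3K27me3 in Utx-KO ESC and 5.40 kb of H3K4me3 in Utx-KO MEF, and with 1.15 kb of H3K27me3 in WT ESC and 4.37 kb of H3K4me3 in WT MEF. WT ESC also had 0.825 kb of H3K4me3 there, so in WT cells it did not have each mark without the other. Of the 110 opposite regions, 92.7% had H3K4me3 in WT ESC, 54.5% had H3K27me3 in WT MEF and 51.8% (42.1 to 61.4) had both of these, or 44.5% (35.1 to 54.3) with each mark without the other. They were wider, with a median of 2085 bp.

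The 110 regions were also followed into the doxycycline-treated fibroblasts and the iPS clones. H3K4me3 was listed at 56.4% of them in Utx-KO MEF with doxycycline, at 89.1% in iPS clone 1 and at 95.5% in iPS clone 2, and H3K27me3 at 70.0% in Utx-KO MEF with doxycycline. WT MEF with doxycycline had H3K4me3 at 78.2% and H3K27me3 at 5.45%, with an H3K27me3 list of only 938 peaks. The widest of the 5 with the highest scores, chr6:30117866-30127346, had 9.48 kb of H3K4me3 in Utx-KO ESC and 5.06 kb of H3K27me3 in Utx-KO MEF. In WT cells it had 8.56 kb of H3K4me3 in WT ESC, and 3.84 kb of H3K27me3 together with 0.763 kb of H3K4me3 in WT MEF. At chr10:60878856-60887261 the ESC had 8.41 kb of H3K4me3 and the fibroblasts 1.07 kb of H3K27me3 in Utx-KO cells. H3K4me3 covered 7.95 kb of it in WT ESC and H3K27me3 2.79 kb in WT MEF.

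Regions with H3K4me3 in only 1 cell type were also read for H3K27me3 in the other. Of the 3436 H3K4me3 regions only in Utx-KO MEF, 31.5% (30.0 to 33.1) had H3K27me3 in Utx-KO ESC. Of the 7984 only in Utx-KO ESC, 9.02% (8.40 to 9.67) had H3K27me3 in Utx-KO MEF. The ESC list put H3K27me3 on 31.9% of the regions only in Utx-KO ESC as well, and on 20.9% of the shared ones, so nearly equal parts of both unshared classes carried it. In Utx-KO MEF H3K27me3 was more frequent at the regions only in Utx-KO ESC than at those only in Utx-KO MEF (1.14%) or at the shared ones (2.08%).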

How the data were processed

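ChIP-seq peak lists of 19 samples were used. Per the submitters' processing notes, CASAVA 1.8.2, Bowtie 0.12.5, MACS 1.4.1 and build mm9 were used. Settings and controls are not given in the sources used here, and whole-cell extracts were not analysed here. Each list gives a score per peak, set by the authors. The deposited score behaved as a multiple of the negative log10 of a probability, saturated near 3100, and served to rank and filter within a list. Samples were grouped by title and source name. Peaks were compared by an overlap of at least 1 bp, with 1-based mm9 positions, and 1 peak on another sequence was left out. Log2 ratios added 1 to each count. Intervals are exact binomial intervals (Clopper-Pearson). The named regions were the 10 highest scoring per mark and direction (equal scores by width), the 5 widest shared, the 5 per change of marks and the 5 widest domains. A selection of them is given. The members and lists were chosen with earlier results of these data known. No mm9 genome or annotation was used, so neither genes nor sequences are given. Code was tested on simulated data (12 of 12 placements recovered) and against bedtools 2.31.1. Analyses used Python 3.11.15, numpy 2.4.6, scipy 1.17.1 and matplotlib 3.10.9.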

Additional observations from a re-analysis of the deposited data

Results flagged for a closer look

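UTX was mapped in WT cells, and its lists were used in the report only to mark doubtful positions. A UTX peak of WT ESC lay on 6.41% of the H3K4me3 regions only in Utx-KO ESC (512 of 7984, interval 5.89 to 6.97), on 1.14% of those only in Utx-KO MEF (39 of 3436, 0.808 to 1.55) and on 4.42% of those in both (533 of 12059, 4.06 to 4.80). They are given because they come from data outside the main measurement. No background share was measured, the regions differ in median width (1262 bp only in Utx-KO ESC, 483 bp only in Utx-KO MEF, 2498 bp in both), and with 1 UTX library of WT ESC the differences were not tested.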

How the results depend on the processing

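Of 72 values recomputed under 6 alternatives, 30 stayed within the interval or range of the value given above, 42 moved, and none of the ratios changed sign. The cause of each move was not tested. Leaving out the doubtful positions moved none of the 12 results. Autosomes alone moved the H3K27me3 log2 ratio (3.91) and the share of Utx-KO MEF H3K27me3 peaks met by Utx-KO ESC (57.9%).

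The log2 ratios for H3K4me3 were 1.03 at a score of at least 100, 1.02 where peaks had to share 50% or more of the shorter one, 1.66 with equal list lengths and 1.70 with peaks widened by 1000 bp. Those for H3K27me3, in the same order, were 2.69, 3.66, 0.41 and 3.62. In that order, too, 86.2, 81.9, 87.1 and 88.3% of the Utx-KO MEF H3K4me3 peaks and 50.6, 52.3, 39.4 and 63.2% of the H3K27me3 peaks were met by Utx-KO ESC. Doubly marked shares were 21.4, 19.4, 14.3 and 29.2% in Utx-KO ESC, and in Utx-KO MEF 0.667, 0.521 and 2.41% (score, overlap, widening). Of the doubly marked ESC peaks, 43.1, 42.7 and 54.1% had H3K4me3 in Utx-KO MEF (overlap, equal lengths, widening), and 17.1, 13.7, 22.1 and 19.8% had H3K27me3 there (all 4). H3K27me3 in Utx-KO ESC at H3K4me3 regions only in Utx-KO MEF was at 29.6, 28.1, 15.9 and 35.6%, and H3K27me3 in Utx-KO MEF at regions only in Utx-KO ESC at 11.0, 6.79 and 12.9% (score, overlap, widening). The 1060 regions with H3K27me3 in Utx-KO ESC and H3K4me3 in Utx-KO MEF became 398 with equal lengths and 693 with widening, and the 110 opposite ones 240 with equal lengths. The alternatives for these 2 counts were added after the data were seen.

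With 1 library per mark and state, there was no replicate to leave out, and intervals leave out variation between cultures. Read depth was unknown, so absence of a peak in 1 list is not absence of the mark, most of all for the short H3K27me3 list of Utx-KO MEF. Short peaks can split a marked stretch into several regions. No paired analysis was possible because each group had 1 library per mark and the labels number only the iPS clones.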
